A study of Mus musculus with 8 samples.

Results

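Transcripts of B cells and of antigen-presenting cells were measured in libraries of sorted 8F10 T cells, where they serve as a measure of other lymph node cells. The 34 genes were chosen by name, 13 of B cells, 5 of MHC class II, 7 of dendritic cells and 9 of macrophages and monocytes, out of 46625 gene names in the count table, and all 34 were found there (the table writes symbols in capitals, such as IGHM, CD74, H2-AA and CIITA, here in the usual mouse style). 8F10 is a T cell clone that recognises a peptide of insulin. Donors were 8F10 mice that carry CD45.2 and are deficient in the T cell receptor alpha chain, and their marrow stem cells, cleared of T and B cells, were given to CD45.1 hosts after irradiation at a dose below the lethal one. The hosts were NOD mice, which make native insulin, or B16A mice, which are on the NOD background (labelled NOD/ShiLtJ) and carry an insulin changed in its B chain. After 6 weeks the 8F10 T cells were sorted from inguinal lymph nodes, and each host gave 4 libraries, 1 in each of 4 batches. Such hosts keep B cells and antigen-presenting cells of their own, and the transferred marrow can also form these cells.

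MHC class II molecules present peptides to CD4 T cells. B cells, dendritic cells and macrophages carry them, and conventional mouse T cells make little or none. The invariant chain Cd74 guides the class II chains, coded by H2-Aa, H2-Ab1 and H2-Eb1, to the compartment where peptides are loaded, and the coactivator Ciita switches these genes on together. B cells are recognised by the signalling chains of their receptor, Cd79a and Cd79b, and by the surface proteins Ms4a1 (CD20), Cd22 and Cr2, and tissue macrophages by the 3 chains of complement C1q. The class II promoters share 2 short elements, the X box and the Y box, that assemble the factors to which Ciita binds. The promoters of H2-Aa and H2-Eb1 are shown because these genes are the class II genes with an entry in the promoter table. The lines below give the 130 bases before the start of each gene, 5′ to 3′ on the gene's strand, with the matches to CTNGCAAC (X box, first) and CTGATTGG (Y box, second) in capitals, from RefSeq, build GRCm38.p6.
H2-Aa, chr17:34287824-34287953, minus strand: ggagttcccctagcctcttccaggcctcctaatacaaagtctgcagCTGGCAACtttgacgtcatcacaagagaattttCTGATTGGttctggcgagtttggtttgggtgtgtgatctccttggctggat
H2-Eb1, chr17:34305737-34305866, plus strand: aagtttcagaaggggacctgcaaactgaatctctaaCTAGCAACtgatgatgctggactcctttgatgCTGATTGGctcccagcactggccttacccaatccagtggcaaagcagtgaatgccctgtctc
The boxes stand 25 bases apart in H2-Aa and 24 in H2-Eb1. Both strands of 32851 promoters of 300 bases (250 before to 50 after a start) were searched. The X box letters were in 3.42% of them, the Y box letters in 4.1% and both in 0.18%. Of the 34 genes 21 had a promoter in the table. H2-Aa and H2-Eb1 were the 2 with both boxes, and Fcer2a had the Y box letters alone. A match describes the sequence and does not show that a factor binds.

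The libraries of batches 1 to 3 held 4896593 to 6137666 counts and those of batch 4 held 28301805 (NOD) and 28094237 (B16A). Although deeper, the batch 4 libraries detected 19751 and 20723 genes against 29729 to 33175. Levels are counts per 1000000 of TMM-scaled library size (CPM). The sorted cells carried CD4 T cell transcripts: Cd4 stood at 699 to 1204 CPM and Cd3e, a chain of the receptor complex, at 1078 to 4203 CPM. Trbc1, a constant part of the receptor beta chain, stood at 846 to 3546 CPM. Cd28, a co-stimulatory receptor of T cells, was low at 0.324 to 9.95 CPM. Cd8a, of cytotoxic T cells, stood at 0 to 3.56 CPM and Cd8b1, its partner chain, at 62.6 to 186 CPM. The summed level of 13 T cell genes was 5363 to 9975 CPM in batches 1 to 3 and 18732 (NOD) and 14123 CPM (B16A) in batch 4. As a level for genes of another tissue, 1415 olfactory and vomeronasal receptor genes, which belong to the sensory neurons of the nose, were read in the same libraries. They summed to 1420 CPM in NOD replicate 2, to 535 to 794 CPM in the other 5 libraries of batches 1 to 3, and to 10.8 (NOD) and 15.8 CPM (B16A) in batch 4. In batches 1 to 3 between 60.6% and 80.1% of these receptor genes had a read. These genes of an unrelated tissue thus differed 58.7-fold between batches 1 to 3 and batch 4, and NOD replicate 2 held 2.19 times the mean of the other 5.

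Most of the 34 genes were rare. With counts scaled by exon length, which allows genes to be compared, Ighm, the constant part of the IgM heavy chain (chr12:113418558-113422730, GRCm38), led with 254 CPM per kilobase of exon in the pooled libraries of batches 1 to 3. Cd74 followed with 49.4, then H2-Eb1 with 18.3, the lysosomal protein gene Cd68 with 14.2, H2-Ab1 and H2-Aa with 11.9 each, and C1qb with 11.4 CPM per kilobase. On the same scale the receptor genes of the nose stood at 0.144. The lowest of the 34 were the B cell genes Ms4a1 (0.319) and Pax5 (0.329) and the coactivator gene Ciita (0.354 CPM per kilobase). In each of the 6 libraries of batches 1 to 3, 16 genes stood above the 95th percentile of the receptor genes, which was 0.473 to 1.47 CPM per kilobase. These were 4 of 13 B cell genes (Ighm, Ighd, Cr2, Fcer2a), 4 of 5 class II genes, 2 of 7 dendritic cell genes (Itgax, Zbtb46) and 6 of 9 macrophage and monocyte genes (Lyz2, Csf1r, Cd68, C1qa, C1qb, C1qc). Another 10 did so in some of the 6 libraries. The 8 that did so in none were Ms4a1, Pax5, Ebf1, Blk, Cd22, Ciita, Xcr1 and Fscn1. Fewer cells of a type and less RNA per cell cannot be told apart in these libraries.

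**Figure D1:**
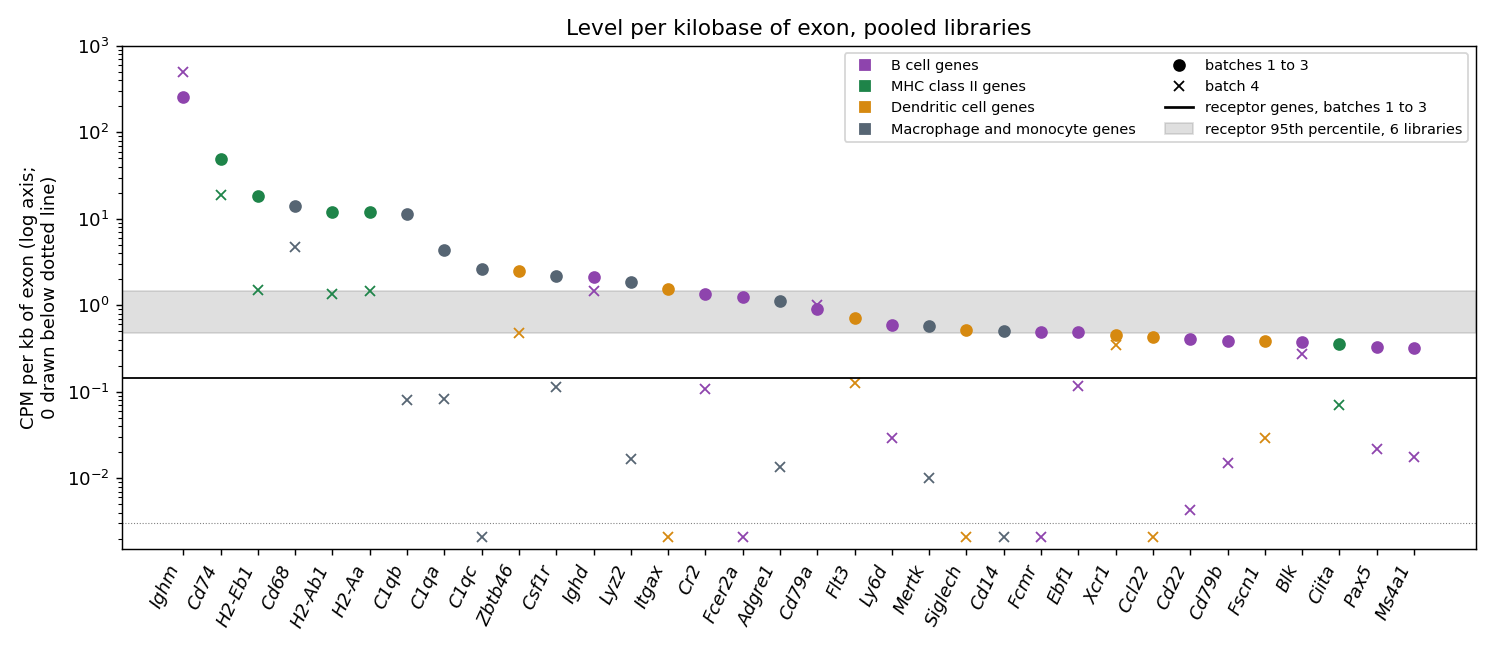
Level per kilobase of exon (CPM per kb, log axis) of the 34 genes, ordered by their level in the pooled libraries of batches 1 to 3 (circles), with the 2 batch 4 libraries pooled (crosses, 0 drawn below the dotted line). The black line is the pooled level of 1415 receptor genes of the nose in batches 1 to 3 (0.144) and the grey band the range of their 95th percentile over those 6 libraries; Ighm, Cd74 and the class II chains lie far above both in batches 1 to 3.

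Among the B cell genes Ighm stood apart from all others. It stood at 481, 436, 452 and 1271 CPM in NOD replicates 1 to 4 and at 428, 552, 523 and 652 CPM in B16A replicates 1 to 4. Both batch 4 libraries were above the other 6, and the hosts overlapped. Ighm was the 1 gene of the 34 with this pattern, which 31.8% of all 14607 tested genes had. Its log2 fold change, NOD over B16A, was 0.29 ± 0.41 (standard error; quasi-likelihood test of edgeR, adjusted p = 0.9999), and without NOD replicate 4 it was -0.26. The genes that define B cells did not stand at such a level. Cd79a stood at 2.24, 1.12, 1.31 and 1.43 CPM in NOD and 0.304, 1.25, 1.78 and 1.51 CPM in B16A replicates 1 to 4, from 2 to 36 reads a library. Cd79b had 0 to 7 reads in any library. Igkc, the constant part of the kappa light chain, was highest in NOD replicate 4, as Ighm was, at 4.84 CPM. It stood at 0.712 CPM in B16A replicate 4 and at 0 to 1.68 CPM in batches 1 to 3. Ighd, the heavy chain of IgD, stood at 2.59 to 5.62 CPM.

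Of the other B cell genes, 7 had both batch 4 libraries below the other 6, a pattern that 40.4% of all tested genes had. Cr2, a complement receptor of mature B cells, stood at 8.60, 13.7, 15.2 and 0.0896 CPM in NOD and at 8.83, 7.33, 12.5 and 1.59 CPM in B16A replicates 1 to 4. The 2 batch 4 values are the lowest, and the hosts overlap. Its log2 fold change was 0.31 ± 1.10 (standard error; edgeR adjusted p = 0.9999), but -0.25 once batch was a term. Ebf1, a transcription factor that sets up the B cell programme, stood at 4.13, 8.60, 3.92 and 1.84 CPM in NOD and 3.50, 3.90, 5.02 and 0.461 CPM in B16A replicates (log2 fold change 0.52, standard error 0.80, edgeR adjusted p = 0.9999). NOD replicate 2 held the highest Ebf1 level and also the highest level of Pax5, the factor that maintains B cell identity, with 7.85 CPM against 1.03 to 2.96 CPM in the other 5 libraries of batches 1 to 3. Fcer2a, the low-affinity IgE receptor CD23, had 2.59 to 6.36 CPM in batches 1 to 3 and no read in either batch 4 library. Ms4a1 (0.609 to 3.18 CPM), Cd22 (0.654 to 4.30) and the kinase gene Blk (0.312 to 2.43, with 1.26 CPM in B16A replicate 4) stayed under 5 CPM in batches 1 to 3, as did Ly6d (0 to 1.09), a surface marker of B lineage cells, and Fcmr (0 to 1.404), the receptor for IgM. Without Ighm the 12 B cell genes summed to 29.6, 52.4, 34.3 and 6.90 CPM in NOD and 23.7, 34.02, 36.6 and 7.75 CPM in B16A replicates 1 to 4. NOD replicate 2 is the highest and batch 4 the lowest, in both hosts.

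**Figure D2:**
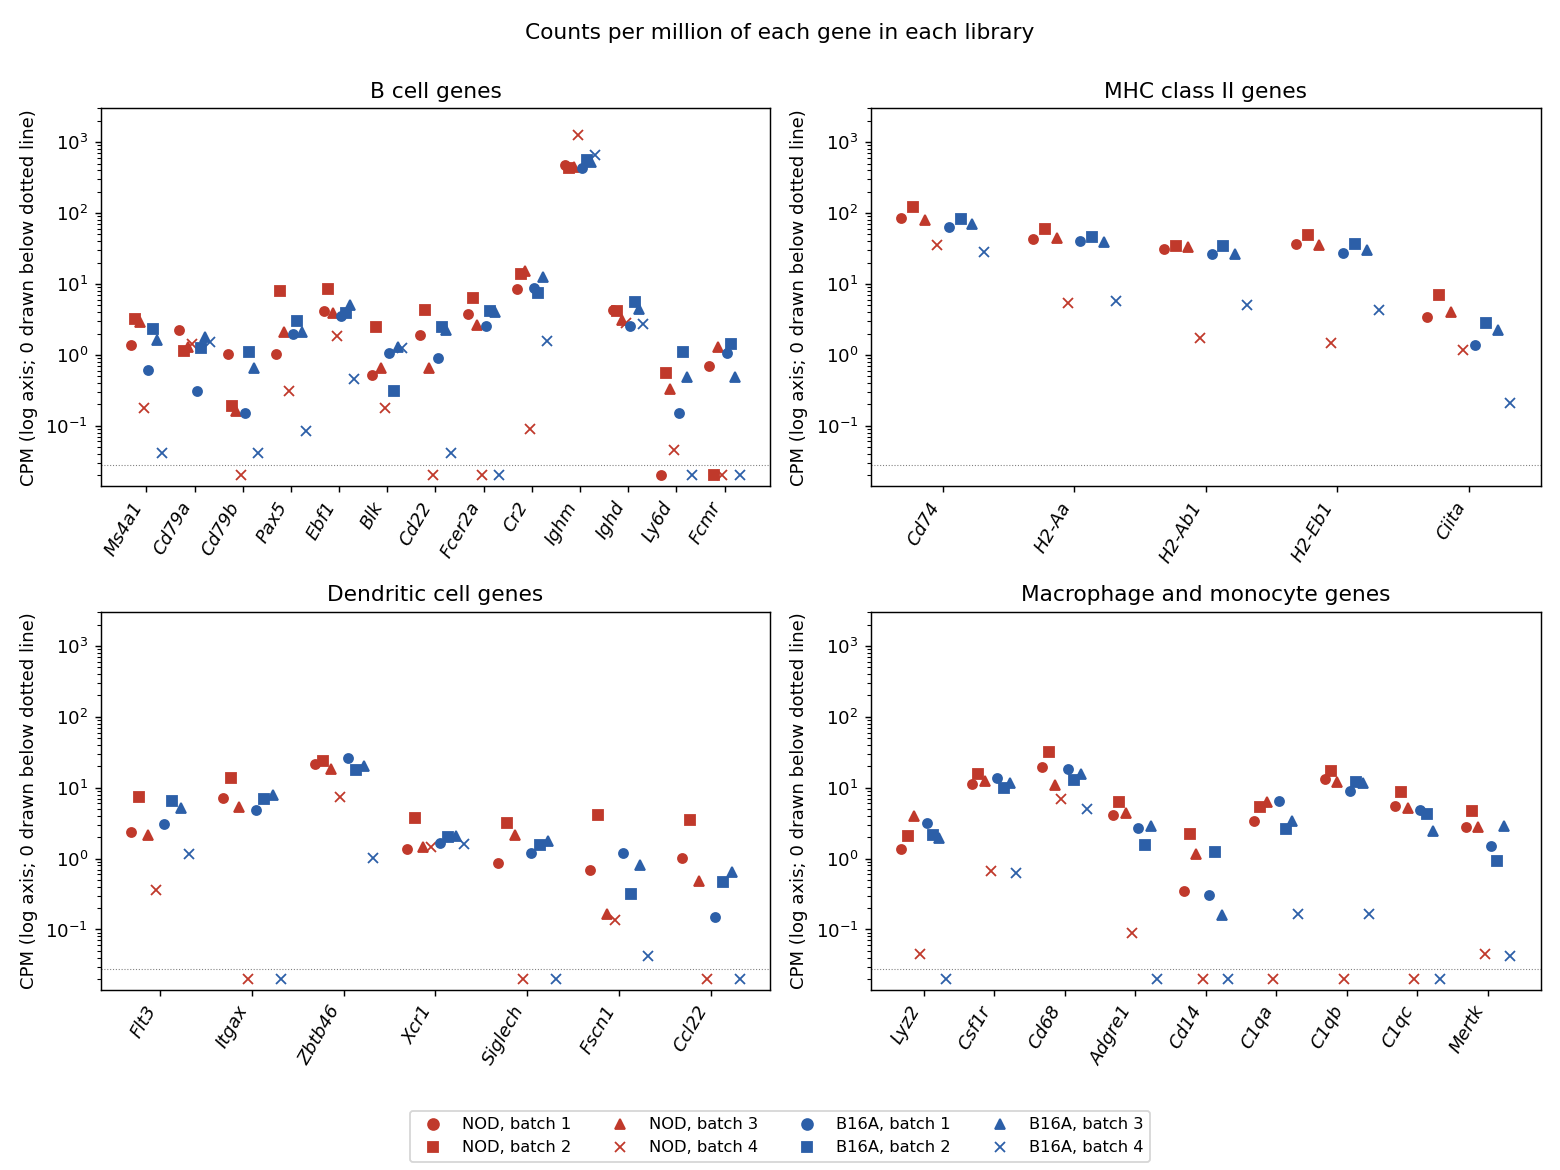
CPM of each of the 34 genes in each of the 8 libraries (log axis, 0 drawn below the dotted line), by class, with NOD in red and B16A in blue and a marker for each batch (1 point is 1 library, so there are no error bars). Batch 4 (crosses) lies below the other batches for 27 of the 34 genes, while Ighm is highest there, at 1271 and 652 CPM.

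The class II genes other than Ciita were the most abundant after Ighm, with Cd68 among them by length. Cd74 stood at 85.2, 121, 80.7 and 35.6 CPM in NOD and at 64.1, 82.1, 70.9 and 28.1 CPM in B16A replicates 1 to 4. The NOD library was the higher of the pair in all 4 batches, with log2 ratios of 0.41, 0.56, 0.19 and 0.34, although the hosts overlap when batches are mixed. Of the 34 genes 4 had this pattern (Cd74, Ciita, Ms4a1 and the macrophage receptor gene Adgre1), as did 7.43% of all tested genes. For Cd74 the log2 fold change was 0.40 ± 0.45 (standard error; edgeR adjusted p = 0.9999). Once batch was a term it was 0.38 ± 0.15 (standard error; edgeR unadjusted p = 0.0230; adjusted p = 0.798), which does not pass. Ciita stood at 3.44, 6.92, 4.09 and 1.17 CPM in NOD and at 1.37, 2.81, 2.27 and 0.210 CPM in B16A replicates 1 to 4. Each NOD library held more than its partner, from 5 to 37 reads a library, and the hosts overlap. Its log2 fold change was 1.23 ± 0.90 (standard error; edgeR adjusted p = 0.9999), or 1.44 ± 0.58 once batch was a term (standard error; edgeR unadjusted p = 0.0267; adjusted p = 0.821). At an unadjusted p under 0.05, 0 of the 26 genes that could be tested passed without the batch term and 2, Cd74 and Ciita, with it, beside 0.233% and 5.87% of all tested genes. With the term and without the batch 4 pair, 3 had an unadjusted p under 0.05, Cd74, Ciita and H2-Eb1 (edgeR adjusted p = 0.437, 0.565 and 0.577). With the term and without the batch 2 pair, it was 0 of 22. The share of all tested genes under 0.05 was not computed without these pairs, so those counts have no share beside them. Over the 16 alternatives the edgeR or DESeq2 adjusted p ran from 0.306 to 1.00 for Cd74 and, where given, from 0.565 to 1.00 for Ciita. Reads of Ciita and its overlapping neighbour Dexi may not be told apart, since no source used here says whether counting used strand.

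H2-Aa, the alpha chain of I-A, stood at 42.9, 60.4, 44.0 and 5.47 CPM in NOD and at 40.0, 46.2, 39.0 and 5.70 CPM in B16A replicates 1 to 4 (log2 fold change 0.22, standard error 0.78, edgeR adjusted p = 0.9999). NOD mice carry a defective gene for the alpha chain of I-E and do not display that molecule, though they have its beta chain gene. That gene, H2-Eb1, stood at 37.0, 49.4, 35.5 and 1.48 CPM in NOD and 27.7, 36.0, 29.8 and 4.32 CPM in B16A replicates (log2 fold change 0.33, standard error 0.93, edgeR adjusted p = 0.9999). For H2-Eb1 the fold change was -0.0098 once batch was a term, and in batch 4 NOD was the lower (log2 ratio -1.43). In both genes NOD replicate 2 is the highest library and batch 4 the lowest, and the hosts overlap. H2-Ab1, the beta chain of I-A, ranged from 26.0 to 34.2 CPM in batches 1 to 3, with 1.75 (NOD) and 5.07 CPM (B16A) in batch 4. Proportions among the class II genes also differed in batch 4. H2-Aa stood at 0.499 to 0.625 of the Cd74 level in batches 1 to 3 and at 0.154 (NOD) and 0.203 (B16A) in batch 4, and H2-Eb1 at 0.407 to 0.439 and at 0.0416 and 0.154. The 5 genes summed to 199, 272, 198 and 45.4 CPM in NOD and 159, 201, 168 and 43.4 CPM in B16A replicates 1 to 4, a ratio of 1.25, 1.35, 1.18 and 1.05 within batches 1 to 4. The receptor genes of the nose gave 0.965, 2.03, 0.835 and 0.683, and T cell genes 1.11, 1.09, 1.43 and 1.33, over the same pairs. The 95% exact interval of the class II sum, which covers counting error only, was 188 to 211 CPM in NOD replicate 1 against 150 to 169 CPM in its partner. In batch 4 it was 42.7 to 48.3 against 40.8 to 46.1 CPM. Both hosts thus carried class II reads in every library, with the higher sum in the NOD library in each batch and overlapping intervals in batch 4. Most of the batch 4 sum was Cd74, at 35.6 CPM (NOD) and 28.1 CPM (B16A). Cd74 and Ciita were higher in the NOD library of that batch, while H2-Aa, H2-Ab1 and H2-Eb1 were each lower.

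**Figure D3:**
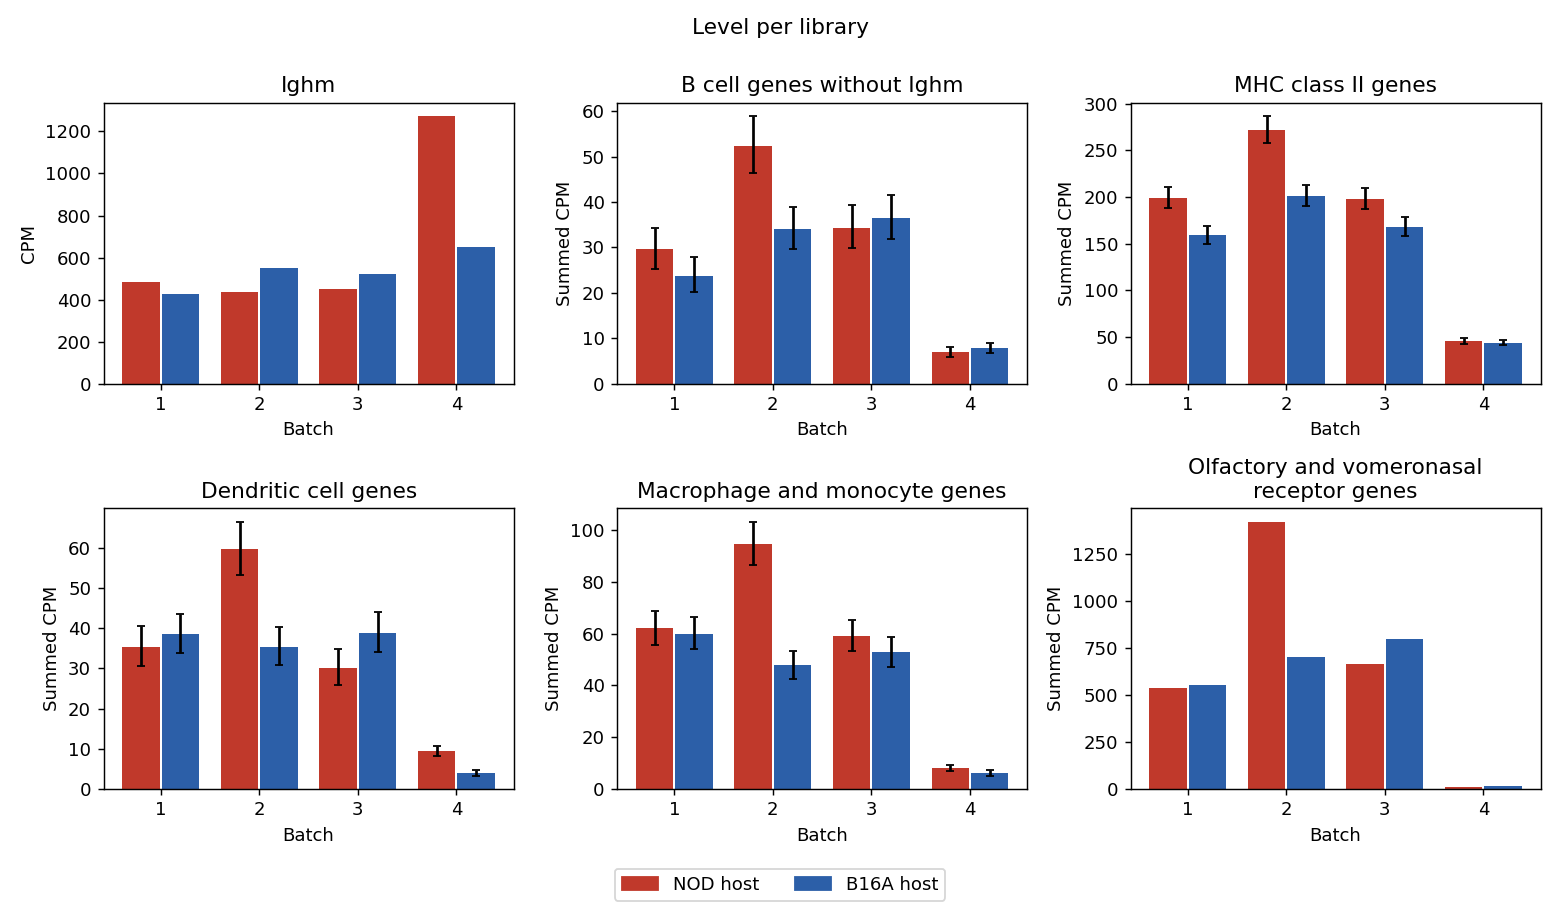
CPM of Ighm and summed CPM of the other B cell genes, the class II, dendritic cell, and macrophage and monocyte genes and, for comparison, 1415 receptor genes of the nose, by batch (each bar is 1 library, NOD in red and B16A in blue; error bars, where drawn, are 95% exact binomial intervals for counting error). NOD replicate 2 is the highest library in 5 panels, among them the receptor genes at 1420 CPM, and batch 4 is lowest in the same 5.

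Other genes of class II presentation, from a separate list of 14, did not all follow the chains. H2-DMa, part of the complex that edits bound peptides, read 78.8 (NOD) and 59.96 CPM (B16A) in batch 4 against 9.54 to 15.7 CPM in batches 1 to 3. Ctss, a protease that trims the invariant chain, read 401 and 339 CPM against 21.2 to 57.5 CPM. Both were highest in the libraries where H2-Aa, H2-Ab1 and H2-Eb1 were lowest. Rfxank, a subunit of the factor that binds the X box, read 69.6 and 38.8 CPM against 24.2 to 34.2 CPM. In 5 of the 14 genes both batch 4 libraries were instead below the other 6, beside 40.4% of all tested genes. Among them was H2-DMb1, the partner chain of H2-DMa, with 0.0896 and 0.168 CPM against 1.72 to 4.67 CPM. Of the 14 genes 10 passed the filter on low counts, 7 had a positive and 3 a negative fold change, and 0 passed the test.

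Dendritic cell genes were rarer than the class II chains. Zbtb46, a transcription factor of conventional dendritic cells, stood at 21.7, 23.7, 18.3 and 7.39 CPM in NOD and 26.3, 17.6, 20.5 and 1.01 CPM in B16A replicates 1 to 4. The hosts overlap, and the sign of the difference varied with the batch (log2 fold change 0.12, standard error 0.80, edgeR adjusted p = 0.9999). Itgax, the integrin chain CD11c, stood at 7.23, 13.8, 5.39 and 0 CPM in NOD and 4.87, 6.87, 7.77 and 0 CPM in B16A replicates (log2 fold change 0.44, standard error 1.63, edgeR adjusted p = 0.9999). Flt3, a growth factor receptor of dendritic cell precursors, stood at 2.41, 7.48, 2.12 and 0.359 CPM in NOD and 3.04, 6.55, 5.18 and 1.17 CPM in B16A replicates (log2 fold change -0.37, standard error 0.93, edgeR adjusted p = 0.9999). Neither gene separated the hosts. The remaining 4 passed the 95th percentile of the receptor genes in at most 1 of the 6 libraries of batches 1 to 3. Xcr1, a chemokine receptor of cross-presenting dendritic cells, had 1.38 to 3.74 CPM in batches 1 to 3, and Siglech, of plasmacytoid dendritic cells, 0.860 to 3.18 CPM. Fscn1 and Ccl22, an actin bundler and a chemokine of mature dendritic cells, stood at 4.11 and 3.55 CPM in NOD replicate 2 and at 0.163 to 1.22 and 0.152 to 1.03 CPM in the other 5 libraries of batches 1 to 3. From 22 and 19 reads in that library, these are the 2 largest elevations of NOD replicate 2 over the mean of the other 5, 6.45-fold and 6.37-fold. In batch 4 Itgax, Siglech and Ccl22 had no read in either library, which allows up to 0.134 CPM (NOD) and 0.126 CPM (B16A) at 3 counts a library.

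Among the macrophage and monocyte genes Cd68, a lysosomal protein, was the most abundant. Cd68 stood at 19.6, 32.2, 10.8 and 7.04 CPM in NOD and 18.1, 12.95, 15.7 and 4.99 CPM in B16A replicates 1 to 4 (log2 fold change 0.43, standard error 0.56, edgeR adjusted p = 0.9999). Csf1r, the receptor for the macrophage growth factor M-CSF, stood at 11.4, 15.7, 12.6 and 0.672 CPM in NOD and 13.9, 9.99, 11.7 and 0.629 CPM in B16A replicates (log2 fold change 0.16, standard error 1.01, edgeR adjusted p = 0.9999). The hosts overlap for both genes, and NOD replicate 2 is the highest library. C1qb stood at 13.4, 17.2, 11.9 and 0 CPM in NOD and 8.98, 12.0, 11.7 and 0.168 CPM in B16A replicates (log2 fold change 0.38, standard error 1.45, edgeR adjusted p = 0.9999). The C1q chains, coded side by side on chromosome 4, all had reads in each library of batches 1 to 3, C1qa at 2.65 to 6.39 CPM and C1qc at 2.43 to 8.79 CPM, and were nearly absent together in batch 4. There C1qb and C1qa had 4 reads each, all in the B16A library, and C1qc had 0 in both. C1qb was 143-fold higher in the pooled libraries of batches 1 to 3 than in those of batch 4, and C1qc at least 78.2-fold higher, with a floor of 3 counts over both batch 4 libraries. The rest were Adgre1 (F4/80, 1.56 to 6.36 CPM in batches 1 to 3), the lysozyme gene Lyz2 (1.38 to 3.92), the clearance receptor gene Mertk (0.936 to 4.67) and Cd14, the co-receptor for endotoxin (0.162 to 2.24). Lyz2 has a near-identical neighbour, Lyz1, so its reads are uncertain.

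No gene of the 34 differed between the hosts after adjustment. Of the 34 genes 26 passed the filter on low counts. The other 8 were Cd79a, Cd79b, Blk, Ly6d, Fcmr, Fscn1, Ccl22 and Cd14. The edgeR test called 0 of the 26, beside 0% of all 14607 tested genes, and again 0 beside 0% once batch was a term. Without the term the standard errors take in the gap between batch 4 and the other batches. With it the log2 fold change (± standard error) was 0.14 ± 0.19 for Ighm, -0.25 ± 0.53 for Cr2 and 0.73 ± 0.54 for Ebf1. It was 0.15 ± 0.17 for H2-Aa, -0.0098 ± 0.26 for H2-Eb1, 0.59 ± 0.42 for Zbtb46 and 0.36 ± 0.50 for Itgax. For Flt3 it was -0.74 ± 0.55, for Cd68 0.35 ± 0.29, for Csf1r 0.15 ± 0.31 and for C1qb 0.19 ± 0.42. DESeq2 called 0 of the 26 without that term and 0 of the 2 to which it gave an adjusted p with it. The hosts overlapped in CPM for each of the 34 genes, and 0.596% of tested genes did not overlap. The fitted fold change was positive for 24 of the 26 (median log2 0.32), against 54.1% of all tested genes (median 0.03). The share of all tested genes was not computed for fits that leave out libraries. The count of positive genes among the 26 varied with the libraries used. It was 12 of 26 without NOD replicate 2 (median -0.045) and 12 of 26 without B16A replicate 4 (median -0.019), which leaves NOD replicate 4 without its partner. Leaving out any other single library gave 20 to 25 of 26. Without the batch 4 pair it was 22 of 26 (median 0.38), or 21 of 26 with the batch term (median 0.32). Without the batch 2 pair and with the term it was 15 of 22 (median 0.082). With all libraries and the term it was 19 of 26 (median 0.18), beside 51.3% of all tested genes (median 0.01). In batches 1 to 4 in turn, 21, 26, 17 and 15 of the 34 genes were higher in the NOD library, beside 50%, 53.4%, 48% and 46.4% of all tested genes. In batch 4 another 7 genes had no read in either library. By class and over batches 1 to 4, the NOD library was the higher for 8, 7, 4 and 6 of 13 B cell genes and for 5, 4, 5 and 2 of 5 class II genes. For dendritic cell genes it was 2, 7, 1 and 2 of 7, and for macrophage and monocyte genes 6, 8, 7 and 5 of 9.

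**Figure D4:**
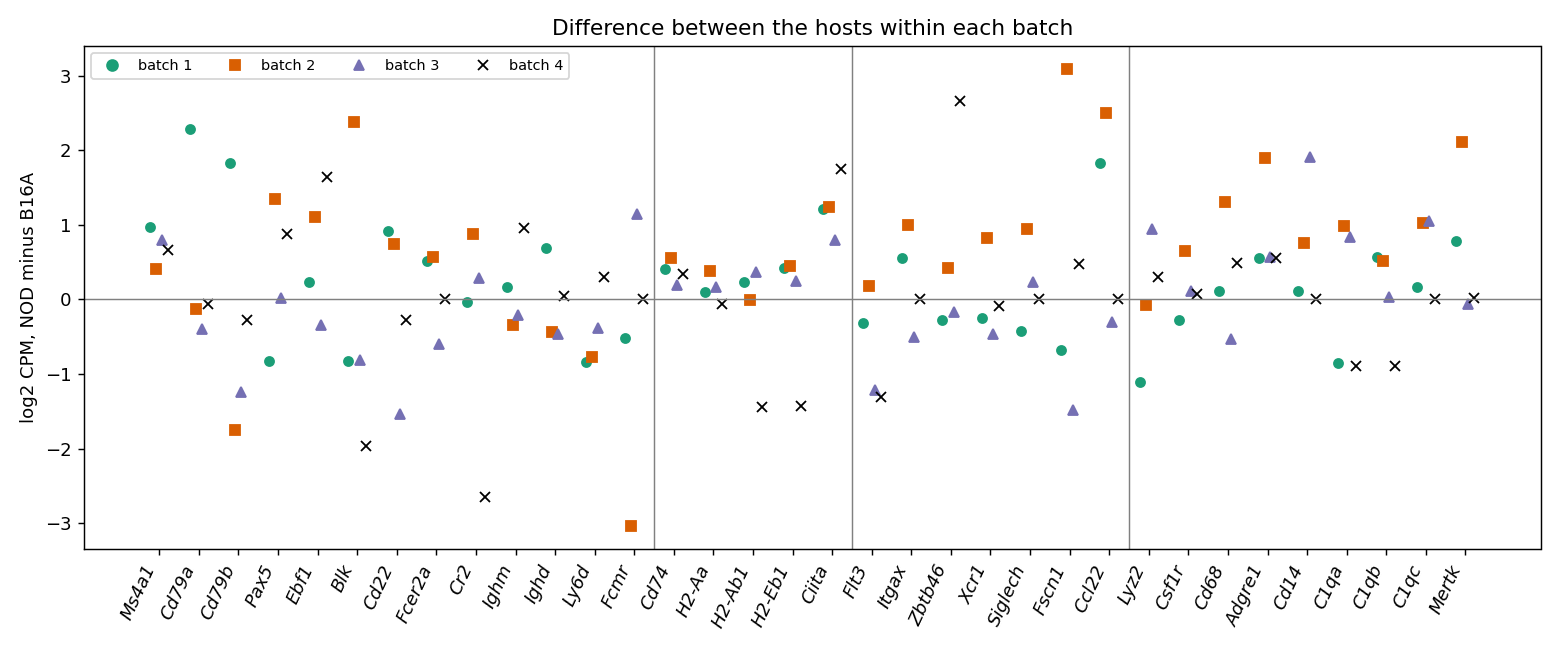
Difference in log2 CPM between the NOD and the B16A library of each batch, for the 34 genes in the order B cell, class II, dendritic cell, and macrophage and monocyte genes (1 point per pair of libraries, so there are no error bars; grey lines part the classes). Batch 2 (squares) lies above 0 for 26 of the 34 genes, beside 53.4% of all tested genes. Ms4a1, Cd74, Ciita and Adgre1 are above 0 in all 4 batches, beside 7.43% of all tested genes.

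Batch 4 and NOD replicate 2 stood apart from the other libraries for most of the 34 genes. Both batch 4 libraries were below the other 6 for 27 of the 34 genes, beside 40.4% of all tested genes, and beside 40.1% of the 13158 tested genes with a mean of 1 to 100 CPM in batches 1 to 3. All 9 macrophage and monocyte genes, all 5 class II genes, 6 of 7 dendritic cell genes and 7 of 13 B cell genes had this pattern. The exceptions were Ighm, Ighd, Cd79a, Blk, Ly6d, Fcmr and Xcr1. Summed levels in batches 1 to 3 were 9.03 times those of batch 4 for macrophage and monocyte genes, 6.01 times for dendritic cell genes, 4.49 times for class II genes and 4.79 times for B cell genes without Ighm. The receptor genes of the nose gave 58.7 times. NOD replicate 2 was the highest library of batches 1 to 3 for 23 of the 34 genes, beside 26.7% of all tested genes and 29.3% of those with a mean of 1 to 100 CPM. It was the highest for 7 of 9 macrophage and monocyte, 6 of 7 dendritic cell, 4 of 5 class II and 6 of 13 B cell genes. Its summed level was 1.68 times the mean of the other 5 libraries for macrophage and monocyte genes, 1.67 times for dendritic cell genes, 1.65 times for B cell genes without Ighm and 1.47 times for class II genes. The receptor genes gave 2.19 times, and T cell genes 0.793 times. Scaled to the same exon length, the receptor level came to 17.4% to 26.1% of the sum of B cell genes without Ighm in batches 1 to 3, 8.86% to 14.7% of the dendritic cell sum, 3.53% to 6.17% of the macrophage and monocyte sum and 0.989% to 1.92% of the class II sum. With that level subtracted, NOD replicate 2 was 1.52 times the mean of the other 5 libraries for B cell genes without Ighm, 1.46 for class II, 1.61 for dendritic cell and 1.66 for macrophage and monocyte genes. Batches 1 to 3 were then 3.84, 4.43, 5.35 and 8.64 times batch 4 in the same order. The level subtracted was a small part of most of these sums, so the ratios could hardly fall to 1, and their cause was not tested.

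Genes of further cell types were read beside the 34, from lists of their own. Of 14 other myeloid genes, 12 had both batch 4 libraries below the other 6, among them Apoe, a lipid carrier of macrophages, with 24.5 to 37.4 CPM in batches 1 to 3 against 0.583 (NOD) and 1.68 CPM (B16A), and Cybb, a subunit of the phagocyte oxidase, with 9.21 to 13.8 CPM against 0 and 0.0838 CPM. The most abundant gene of this list, Ctss, went the other way, so that the sum of the list was 406 (NOD) and 353 CPM (B16A) in batch 4 against 120 to 168 CPM. Of 14 other B cell genes 7 had both batch 4 libraries below the other 6, of 11 other dendritic cell genes 5 and of 7 plasma cell genes 2. Of all tested genes 40.4% had this pattern. Of that B cell list 2 genes stood well above the rest, Ralgps2 at 55.7 to 122 CPM and Pou2af1 at 7.26 to 16.2 CPM. Of the dendritic cell list Tcf4 (8.42 to 43.0 CPM) and Relb (9.05 to 26.5 CPM) were the highest, and of the plasma cell list Xbp1 (22.2 to 54.0 CPM) and Prdm1 (10.1 to 18.6 CPM). Neutrophil genes summed to 0.179 to 10.5 CPM in NOD and 0.126 to 7.93 CPM in B16A libraries, led by Csf3r (0 to 4.49 CPM) and Mpo (0 to 2.03 CPM). Red cell genes summed to 0.538 to 4.99 and 0.210 to 3.43 CPM, with Alas2 at 0 to 4.82 CPM and Hbb-bs at 0 to 0.269 CPM. NK cell genes summed to 32.9 to 106 and 38.4 to 94.99 CPM, mostly Prf1 (24.1 to 64.2 CPM) and Klrd1 (2.44 to 41.1 CPM). Of the rest of that list, Gzma stood at 0.936 to 22.2 CPM and Eomes at 0.0838 to 3.07 CPM. Ncr1 stood at 0 to 3.28 CPM, Nkg7 at 0 to 1.79 CPM and Klrb1c at 0 to 0.624 CPM. Stromal and endothelial genes summed to 288 to 378 and 271 to 419 CPM. Of this Pecam1 made 269 to 403 CPM and Col1a1 1.13 to 10.7 CPM. Col3a1, Pdgfrb, Cdh5, Lyve1 and Prox1 had reads in each library of batches 1 to 3, at 0.490 to 8.60 CPM. The stromal genes Pdpn and Ccl19 had 0 reads in every library, and whether reads could be assigned to them was not tested. Of these lists 0 genes passed the edgeR test between the hosts.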

How the data were processed

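Sorted-cell RNA was amplified with SeqPlex and read as single 50-base reads, per the labels' protocols. The authors deposited raw read counts per gene, whole numbers that are not normalized, in 1 table of 46625 gene names and 8 libraries, with 0 rows that name no gene. STAR, HTSeq, DESeq2 and mm10 stand in the submitters' processing notes; for roles, versions, annotation and strand, the entry is "not given in the sources used here". Labels give the strain as NOD/ShiLtJ, while mm10 is an assembly of another strain, so reads of genes that differ between strains, such as class II genes, may be placed less often; this was not tested.

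The main test was edgeR 4.0.16 in R 4.3.3 (filterByExpr on group, TMM, glmQLFit with robust estimation, glmQLFTest), 4 against 4 libraries without a batch term, with Benjamini-Hochberg adjustment over 14607 tested genes at 0.05. Alternatives were DESeq2 1.42.0, a batch term, RLE factors, no filter, leaving out each library, and leaving out both libraries of batch 4 or, chosen after the data were seen, batch 2. The standard errors given with edgeR were derived, as the absolute log2 fold change divided by the square root of the test's F statistic. Within-batch log2 ratios used a prior count of 2. The fits were tested on simulated data. Libraries are paired by batch, as labelled; deviations from the host means correlated across genes at r = 0.625, 0.702, 0.611 and 0.906 within batches 1 to 4, but at 0.465 to 0.741 between different batches of 1 to 3, so this check hardly tells partners apart there. No pair of libraries of 1 host agreed within sampling noise (lowest chi-square per degree of freedom 7.88). Separate animals are not stated, so p-values cover only the spread among these libraries, possibly technical. Depth was 4896593 to 28301805 counts; intervals are exact binomial at 95% and, like the limit of 3 counts for a gene at 0, cover counting error only.

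The genes and lists were chosen with earlier results of these data known. Every one of the 34 genes is accounted for; the 3 most abundant tested genes of a class, and any with an unadjusted p under 0.05 without or with the batch term, are given with fold change, standard error and p, and of the other 11 lists the 2 most abundant genes, with further genes named after their values were seen. The receptor genes of the nose were chosen by name after the data were seen. Gene positions, exon lengths and overlaps came from GENCODE M21 (GRCm38). Exons of Pax5, Cd22, Cd74, Ciita and Csf1r overlap another gene, so their reads are uncertain.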

Additional observations from a re-analysis of the deposited data

Results flagged for a closer look

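In groups of 4 libraries, 76 sets of values (34 genes and 4 class sums in each host) were searched for a library far from the other 3, and 6 stood out, where chance marks about 1 set in 20. In NOD hosts replicate 4 stood far above the rest for Ighm, with 1271 CPM against 436 to 481 CPM, and therefore for the sum of the B cell genes, with 1278 against 486 to 511 CPM. The same library was far below the rest for H2-Ab1, with 1.75 against 30.6 to 34.03 CPM. NOD replicate 2 was far above the rest for Xcr1, with 3.74 against 1.38 to 1.48 CPM, and for Fscn1, with 4.11 against 0.134 to 0.688 CPM. In B16A hosts replicate 4 was far below the rest for the sum of the dendritic cell genes, with 3.81 against 35.4 to 38.8 CPM.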

How the results depend on the processing

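Of 13 genes with a fold change in the text, 4 (Cd74, Ciita, Ebf1 and Flt3) kept their direction under all 16 alternatives, and 0 of 208 alternative values passed the threshold, though DESeq2 with the batch term gave no adjusted p for 24 of the 26 tested genes. Flt3 kept its sign only barely, at -0.00024 without NOD replicate 4, and Ebf1 fell to 0.040 without NOD replicate 2. With the batch as a term (replicate block) the log2 fold change reversed for Cr2 (-0.25) and H2-Eb1 (-0.0098); with DESeq2 and the replicate block it did so for the same genes (-0.34 and -0.029). Among the other tested genes of the 34 the edgeR fit with the block also reversed Cd22 (0.26 to -0.050), H2-Ab1 (0.13 to -0.17) and C1qa (0.26 to -0.029). It changed no call among the 34. With both batch 2 libraries left out and the block, an alternative chosen after the data were seen, Cr2 (-0.70), H2-Eb1 (-0.19) and Csf1r (-0.043) reversed. With both batch 4 libraries left out, without and with the block, Ighm was -0.13 and -0.13 and Zbtb46 -0.019 and -0.0075. Leaving out each library in turn gave -0.26 to 0.45 for Ighm (reversed without NOD replicate 4), -0.036 to 0.73 for Cr2 (NOD replicate 3, B16A replicate 4), -0.13 to 0.58 for H2-Aa (NOD replicate 2, B16A replicate 4), -0.023 to 0.73 for H2-Eb1 (B16A replicate 4), -0.28 to 0.46 for Zbtb46 (NOD replicate 2, B16A replicate 4), -0.22 to 0.86 for Itgax (NOD replicate 2), -0.050 to 0.68 for Cd68 (NOD replicate 2), -0.24 to 0.56 for Csf1r (NOD replicate 2, B16A replicate 4) and -0.047 to 0.80 for C1qb (B16A replicate 4). The cause was not tested. Over all genes edgeR called 0 genes, DESeq2 with the replicate block 27, and edgeR without batch 4 and with the block 32, with 0 of the 34 genes among them. The log2 ratio of the class sums, NOD over B16A, was 0.29 for B cell, 0.32 for class II, 0.20 for dendritic cell and 0.42 for macrophage and monocyte genes, and moved by less than the spread between libraries under each of 13 alternatives, which is wide enough to hold a change of sign. It was negative for B cell genes without NOD replicate 4 (-0.19) and without batch 4 (-0.11), and for dendritic cell genes without NOD replicate 2 (-0.23), B16A replicate 4 (-0.16) or batch 2 (-0.12). It fell to 0.020 for class II genes without B16A replicate 4 and to 0.045 for macrophage and monocyte genes without NOD replicate 2. With the receptor level subtracted it was 0.29, 0.32, 0.19 and 0.43.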
